A study of Mus musculus with 4 samples.

Results

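Among the miRNA names counted in these mouse small RNA libraries are entries whose reads look like pieces of transfer RNA (tRNA). The entries mmu-miR-1937a, mmu-miR-1274a and mmu-miR-1957, written below without the prefix, are described here, 3 of 628 miRNA arms (the mature and star strands of the hairpins) with at least 1 read. They were chosen by their read counts and their likeness to tRNA, both known from earlier results, so these support nothing here. Their reads are those with 1 match in the deposited mature read tables, summed per name and by length. The cells were NIH-3T3, an established mouse embryonic fibroblast line grown to confluence. The 2 control libraries came from untreated cells and the 2 others from cells given 500 nM thapsigargin for 24 h, a compound that blocks the SERCA calcium pump and brings on stress of the endoplasmic reticulum. All groups share the same line and the same ligation-based small RNA kit.

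A tRNA folds into a cloverleaf with an acceptor stem, a D arm, an anticodon arm and a T arm. Its 3′ end is the triplet CCA, which an enzyme adds after transcription and to which the amino acid is attached. The tRNA gene itself does not carry it in mammals. Many tRNAs carry a methylated adenosine, m1A, in the T loop at position 58 of the standard numbering, a base at which reverse transcriptases are known to stop or to misread. Cells under stress are known to cut tRNA in the anticodon loop, and pieces from the 3′ end are a second well-known class. The 3′ ends of proline and lysine tRNA are also known as the primers of reverse transcription in murine leukaemia virus and mouse mammary tumour virus. Several miRBase entries from early sequencing, miR-1274 and miR-1937 names among them, were later regarded as such pieces.

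Nearly all reads of miR-1937a and of miR-1274a ended in CCA. Each set is shown because the first letters separate the libraries. In the reads of miR-1937a, of the read it shares with miR-1937b and of its hairpin table, capitals mark the base before a shared stretch of 15 bases (position 58 if the read is laid on a tRNA without gaps) and the CCA:
miR-1937a, C form: CatcccggacgagcccCCA
miR-1937a, G form: GatcccggacgagcccCCA
miR-1937a, A form: AatcccggacgagcccCCA
miR-1937a, T form: TatcccggacgagcccCCA
miR-1937a or miR-1937b: atcccggacgagcccCCA
hairpin table, 21 nt with A: caAatcccggacgagcccCCA
hairpin table, 21 nt with G: caGatcccggacgagcccCCA
hairpin table, 22 nt with A: tcaAatcccggacgagcccCCA

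The forms of miR-1274a follow, with the same marks. The last pair has an a inside the stretch where the others have a g:
miR-1274a, 18 nt: gtccctgttcgggcgCCA
miR-1274a, 19 nt: GgtccctgttcgggcgCCA
miR-1274a, 21 nt: caGgtccctgttcgggcgCCA
miR-1274a, 22 nt: tcaGgtccctgttcgggcgCCA
stretch with a, G before it: caGgtccctgttcaggcgCCA
stretch with a, A before it: caAgtccctgttcaggcgCCA

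The reads of miR-1957 have letters like those of a tRNA from the D arm towards the anticodon arm. The capital marks the base at which they differ from the Mir1957a hairpin of GENCODE M21, whose stretch is printed last (GRCm38, chr4:119129792-119129810, plus strand):
miR-1957, 18 nt: gtggtagagcatTtgact
miR-1957, 19 nt: agtggtagagcatTtgact
miR-1957, 21 nt: agtggtagagcatTtgactgc
miR-1957, 22 nt: cagtggtagagcatTtgactgc
Mir1957a hairpin stretch: cagtggtagagcatAtgac

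From general knowledge of tRNA, the miR-1937a reads resemble proline tRNA, the miR-1274a reads lysine tRNA and the miR-1957 reads cysteine tRNA. RefSeq lists 16 proline, 26 lysine and 56 cysteine tRNA genes among 430 tRNA genes of GRCm38. For 10 of the 430, those inside a GENCODE exon, the letters could be read here, so most of these identities were not checked against tRNA genes. The proline gene n-TPtgg2 could be read (chr11:67291139-67291210, plus strand, 72 bases, within an exon of Myh8, a myosin heavy chain gene). Its last bases are shown with the base at position 58 and the base that differs from the reads in capitals:
n-TPtgg2, chr11:67291188-67291210: gggttcaAatcccAgacgagccc

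It matched the stretch of miR-1937a at 14 of 15 bases, with 1 substitution, A64G in standard tRNA numbering (the gene has the first base, the reads the last). The gene has A at position 58 and stops before the CCA of the reads. Elsewhere in 55341 GENCODE genes, the 18-nt form of miR-1937a, CCA included, was found on the sense strand of the transcripts of 1 gene, Gm15280. That of miR-1274a was found in 1, Adarb2. The 18-nt form of miR-1957 was found in no sense transcript. On the opposite strand it was found in 1 gene, Car9, that of miR-1274a in 3 genes and that of miR-1937a in 0.

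The count of miR-1937a was set largely by how reads were named, because the same 3′ end was split over 3 kinds of table. Reads that hold its stretch numbered 2069 (control replicate 1), 181 (control replicate 2), 4976 (thapsigargin replicate 1) and 480 (thapsigargin replicate 2). In this order of libraries, 396, 62, 1720 and 150 were assigned to 1 entry. Another 1447, 28, 1673 and 157 began at the stretch itself and were ambiguous between entries of the miR-1937 family, and 226, 91, 1583 and 173 were longer and sat in the hairpin tables. The named entry thus held the minority of the reads with this stretch in each library. In CPM, reads scaled to a library of 1000000 reads assigned to arms, the whole stretch stood at 536 and 49.8 in the controls and at 893 and 179 after thapsigargin. Reads with the stretch of miR-1274a were little split, with 4, 3, 8 and 1 in the hairpin tables and none among the ambiguous reads. All ambiguous and hairpin-table reads that list miR-1274a, with the exact stretch or not, brought its counts from 1062, 250, 2420 and 167 to 1066, 257, 2437 and 173.

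**Figure D1:**
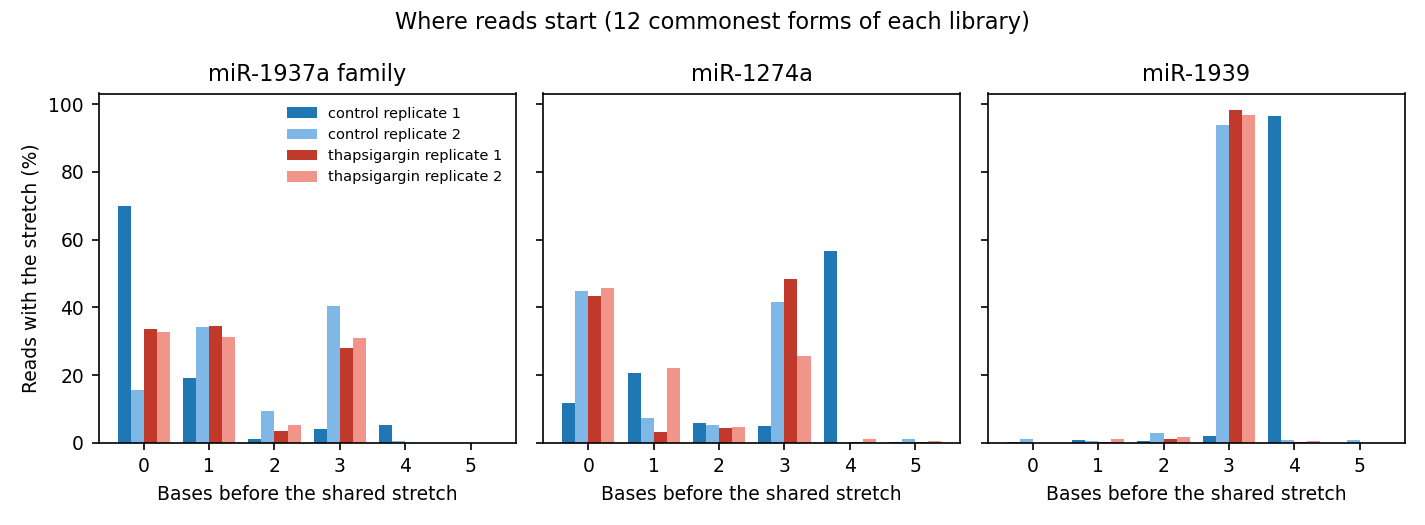
Share of reads with the stretch (y axis, percent) by the number of bases before it (x axis), for the miR-1937a family, miR-1274a and miR-1939; bars are single libraries, coloured by library, and only the 12 commonest forms of each library are drawn. In control replicate 1 the long forms of miR-1274a and miR-1939 begin 4 bases before the stretch, and in the other libraries 3 bases before it.

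The long forms of miR-1274a, and those of miR-1937a with A at position 58, mostly began 1 base earlier in control replicate 1 than in the other libraries. The 22-nt form of miR-1274a (tcaG) had 556 reads there against 0, 2 and 2 in control replicate 2 and the thapsigargin libraries. The 21-nt form (caG) had 46 reads there against 90, 1093 and 34. The 22-nt form with A in the hairpin table of miR-1937a behaved alike, with 110 reads in control replicate 1 and 0, 1 and 0 elsewhere. The 21-nt form with A had 16, 41, 572 and 87. Long reads of this family with G or T at position 58 did not show the step. In control replicate 1, 28 reads had G there and more than 1 base before the stretch, 17 of them beginning caG and 11 aG. With T there, 14 of 17 began caT. The same step was seen in miR-1939, an entry whose reads end like glycine tRNA, with its position 58 base and CCA in capitals:
miR-1939, 22 nt: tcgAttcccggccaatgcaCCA
miR-1939, 21 nt: cgAttcccggccaatgcaCCA

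The 22-nt form of miR-1939 had 951, 1, 5 and 0 reads and the 21-nt form 18, 226, 3384 and 182, in the same order of libraries. The step was not seen in the shortest reads of the miR-1937a family: those starting at the stretch itself made up 69.9% in control replicate 1 and 15.5% to 33.6% in the others. Comparisons of start, length or first base between the groups therefore contain these differences between libraries.

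The first base of miR-1937a differed between control replicate 1 and the other libraries. The C form made up 18.8% of its reads in control replicate 1 and 96.8%, 95% and 94.0% in control replicate 2 and the thapsigargin libraries. The G form had 231 reads in control replicate 1 and 0, 36 and 4 in the others, the A form 49 against 1, 31 and 3, and the T form 26 against 0, 10 and 0. The G form was thus the commonest in control replicate 1 and the C form in the other 3. The shared 18-nt read, which lacks this base, had 1319, 28, 1643 and 152 reads. In reads with more than 1 base before the stretch, A was the commonest base at position 58 in all 4 libraries, at 79.6% and 63.7% in the controls and 43.7% and 61.3% after thapsigargin. G took 12.4% and 27.5% of these reads in the controls and 34.4% and 20.8% after thapsigargin, and T took 7.52%, 8.79%, 19.5% and 15.6%. C, which led among reads with 1 base, took at most 2.46% in these longer reads.

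Over all libraries, 3273 of 4401 reads of the miR-1937a stretch that reach position 58 had a base other than A there. This sum joins reads that begin at position 58 with longer reads, in which A was the commonest base. Thapsigargin replicate 1 alone gave 1720 of the first kind and 1583 of the second. In miR-1274a, 2506 of 2534 reads of the stretch that reach position 58 (98.9%) had G there. With g inside the stretch, 2384 of 2384 reads had G. With a inside it, 122 of 150 had G, 15 had A, 12 had T and 1 had C. miR-1939 showed a single base, with A in 4886 of 4886 reads. Which bases can be seen depends on the letters of each entry and on the mismatches the authors' alignment allowed, which are not given in the sources used here. What sets the base at this position was not tested.

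In miR-1957, 238 of 239 reads had T at the base where the GENCODE hairpin has A. This is the substitution A15T, counted from the first base of the printed hairpin stretch. The 1 other read, in thapsigargin replicate 2, had A there but differed from the hairpin stretch at other bases. Mir1957a lies at chr4:119129779-119129844 on the plus strand (66 bases, GRCm38), within the bounds of Slc2a1, a glucose transporter gene on the same strand, and overlaps none of its exons, so it is intronic there. No RefSeq tRNA gene overlaps it.

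**Figure D2:**
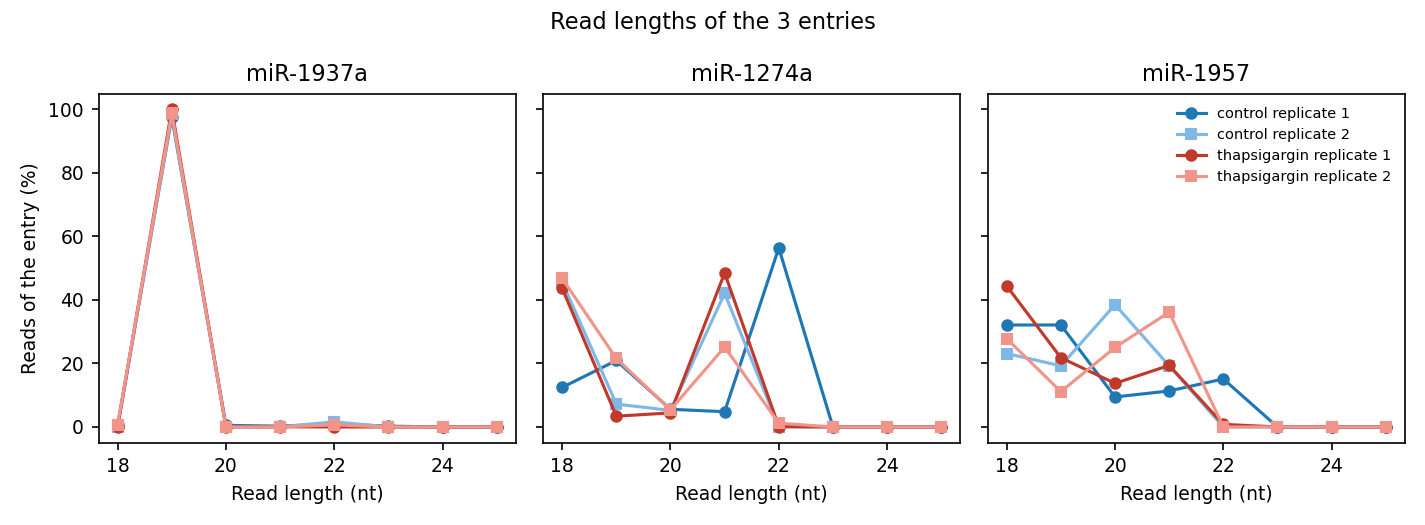
Share of the reads of each entry (y axis, percent) by read length in nt (x axis); lines are single libraries. miR-1937a sits at 19 nt in all 4 libraries and miR-1957 is spread from 18 to 22 nt. miR-1274a has peaks at 18 and 21 nt, or at 19 and 22 nt in control replicate 1.

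Each entry had its own length spectrum. miR-1937a was almost a single length, with 97.5% and 98.4% of its reads in the controls and 99.9% and 98.7% after thapsigargin at 19 nt. That length follows from the naming described above, since shorter forms were ambiguous and longer ones were in the hairpin tables. miR-1274a had 2 peaks, at 18 and 21 nt or, in control replicate 1, at 19 and 22 nt. At 18 nt it held 12.4% of its reads in control replicate 1 (exact 95% interval 10.5 to 14.6), 45.6% in control replicate 2 (39.3 to 52.0), 43.6% in thapsigargin replicate 1 (41.6 to 45.6) and 46.7% in thapsigargin replicate 2 (39.0 to 54.6). At 19 nt the shares were 20.9%, 7.2%, 3.39% and 21.6%. They were 4.80%, 42.0%, 48.4% and 25.1% at 21 nt, and 56.3%, 0%, 0.12% and 1.2% at 22 nt. Intervals are Clopper-Pearson and cover counting error only, as reads without molecular identifiers are not independent molecules. The tables hold reads of 18 to 25 nt, so shorter and longer pieces of tRNA were not measured and the 18-nt peak stands at the lower limit.

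The mean length of miR-1274a was 20.7 and 19.4 nt in the controls and 19.6 and 19.1 nt after thapsigargin. It differed more between the controls than between the group means of 20.1 ± 0.91 and 19.4 ± 0.32 nt (SD, n = 2 each). The mean length of miR-1937a rounded to 19 nt in each library. miR-1957 had 19.5, 19.5, 19.1 and 19.7 nt.

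miR-1957 ended at 2 sites, before and after the letters gc. Reads ending in gact made up 64.2% (49.8 to 76.9) and 46.2% (26.6 to 66.6) in the controls and 64.5% (55.4 to 72.9) and 36.1% (20.8 to 53.8) after thapsigargin. Reads ending in gactgc made up 30.2%, 50%, 29.8% and 58.3%. The replicates of a group lay farther apart than the group means. Its commonest read, of 18 nt, had 14, 6, 55 and 10 reads, and the 19-nt read 17, 5, 25 and 3. The 22-nt form was read 8 times in control replicate 1 and in no other library, and reads that begin at its first letter numbered 12, 1, 0 and 1, again most often in that library.

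**Figure D3:**
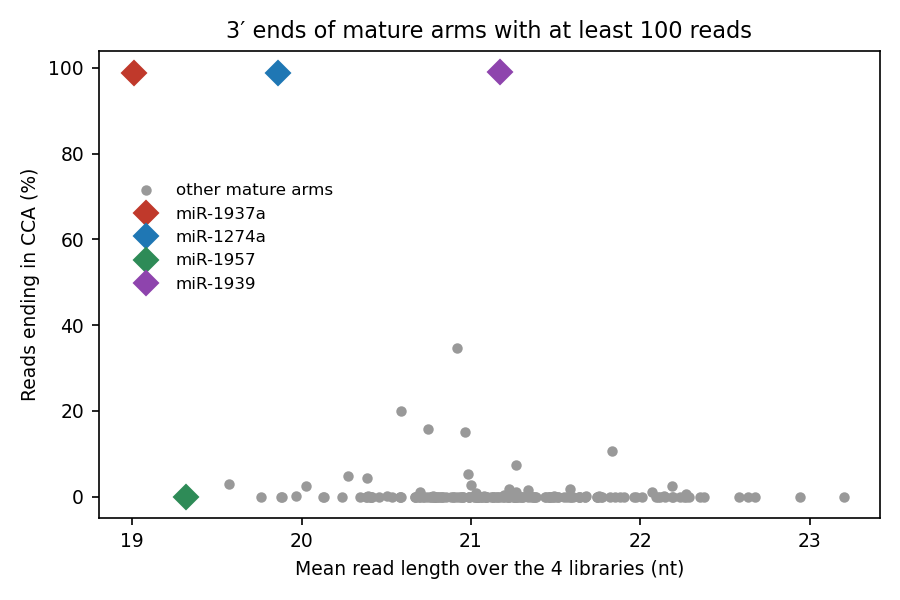
Share of reads ending in CCA (y axis, percent) against mean read length in nt (x axis); grey points are the other mature arms with at least 100 reads, diamonds the 3 entries and miR-1939. miR-1937a, miR-1274a and miR-1939 stand near 99%, the next arm is at 34.7% and miR-1957 is at 0%.

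In the 4 libraries together, 98.9% of miR-1937a reads (2307 of 2333, exact 95% interval 98.4 to 99.3) and 98.7% of miR-1274a reads (3848 of 3899, 98.3 to 99.0) ended in CCA. By library, the share for miR-1937a was 96.2% and 98.4% in the controls and 99.5% and 98.7% after thapsigargin. For miR-1274a it was 97.0%, 99.6%, 99.4% and 98.2%. The groups of miR-1274a overlapped. Those of miR-1937a did not, with means 1.79 percentage points apart (exact permutation p = 0.333). That difference was 0.20 points (exact p = 1) with single-read sequences left out, 9.58 points (exact p = 0.667) with ambiguous reads added, and 0.72 to 2.86 points with each library left out. These shares cover the named entry only. Over all reads with the miR-1937a stretch, CCA ends made up 91.7% and 93.4% in the controls and 98.7% and 97.5% after thapsigargin. Among 177 other mature arms with at least 100 reads, the median was 0%, miR-1939 had 99.0%, and the next, miR-3096-3p, had 34.7%. Of the miR-1957 reads 0 of 239 ended in CCA, which allows a share of up to 1.26%. The letters of this entry resemble the D arm and not the 3′ end of a tRNA, so that count was largely fixed by which reads take the name.

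The other tRNA strings were searched on the read as sequenced, anywhere in it, and do not overlap one another. The T-loop string TTCNANNC would start 5 bases before the shared stretch, and the reads of miR-1937a and miR-1274a that hold the stretch begin at most 4 bases before it. Its absence from the entries was therefore largely fixed by where the named reads start. Among the 177 other arms it was in at least 1 read of 16 and in over 50% of the reads of 1, miR-181a. The D-arm string is the first 11 letters of the 19-nt read of miR-1957, so its share of 50.6% in that entry only counts reads that begin at that letter or before it. Elsewhere it was in 14.8% of the reads of miR-1959, another entry listed for its likeness to tRNA, and in no other of these arms. A match describes letters and shows no origin.

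The exact two-sided permutation test over libraries, whose smallest possible p with 2 against 2 is 0.333, was applied to 14 measures of ends and lengths. The p-values adjusted over the 14 were between 0.933 and 1, so the design could not separate the groups on any of them. Nothing in the labels ties the replicates to separate cultures, so a p-value here sets the groups against library spread that may be technical.

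**Figure D4:**
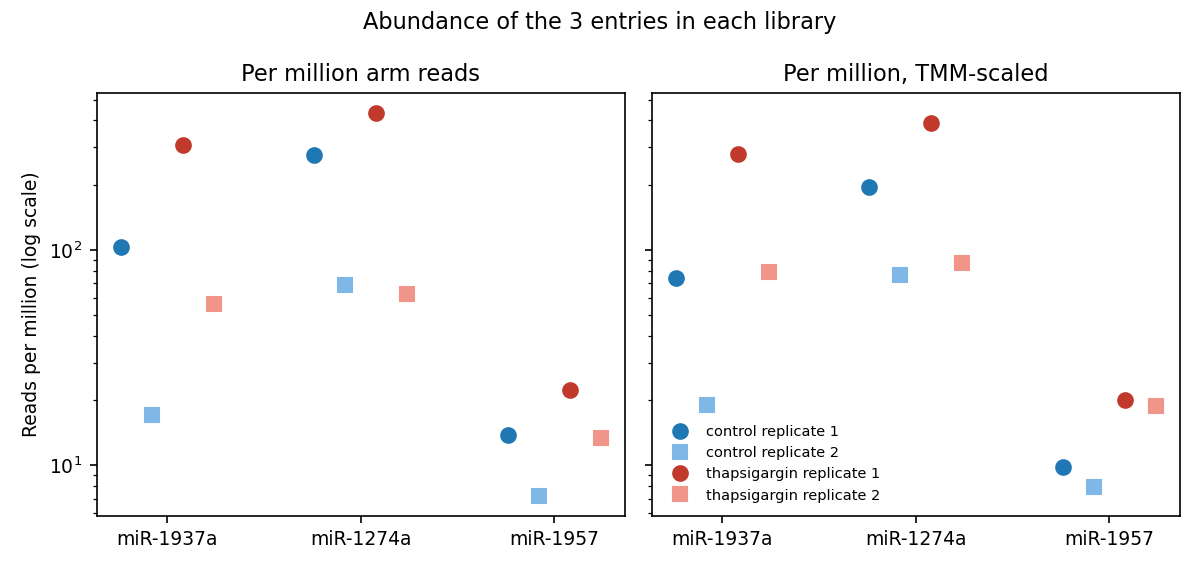
Abundance of the 3 entries (log10 y axis) in each library, in CPM (left) and after TMM scaling (right); circles are replicate 1 and squares replicate 2, blue control and red thapsigargin. On the left the groups overlap for each entry; on the right miR-1937a and miR-1957 lie higher in both thapsigargin libraries than in both controls.

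The libraries held between 2685965 and 5570971 reads assigned to 1 arm. The cell label was checked on miRNAs: 6 of 8 fibroblast and mesenchymal markers were counted and summed to between 504983 and 654946 CPM. The other 2, miR-199a-3p and miR-199b, are without reads of their own, as theirs are ambiguous. Most reads of the fibroblast list came from miR-10b, so its sum rests largely on that arm. miR-10b gave 1375794 of 1947720 reads in control replicate 1 and 2057610 of 2343993 in control replicate 2. It gave 2324752 of 3325944 in thapsigargin replicate 1 and 1432559 of 1759161 in thapsigargin replicate 2. Markers of embryonic stem cells, epithelium, muscle and liver each summed to at most 12 reads per library. Blood markers (6 of 7 counted) summed to between 67.0 and 113 CPM and neural markers (3 of 4) to between 252 and 768. Each sum was mostly 1 arm. miR-155 had 430, 350, 598 and 178 of the 436, 356, 609 and 180 blood reads, controls first. miR-9 had 2455, 819, 4072 and 1280 of the 2610, 914, 4281 and 1354 neural reads. The neural list stood at 677 and 252 in the controls and 768 and 504 after thapsigargin, with miR-137 at 0. Its part in the abundance of the entries was not tested. In bulk RNA, fewer cells with a given RNA and less of it per cell cannot be told apart.

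miR-1937a had 399 and 62 control reads and 1721 and 151 after thapsigargin, or 103, 17.1, 309 and 56.2 CPM. The thapsigargin library numbered 2 lay below the control library numbered 1, so the groups of 60.3 ± 61.1 and 183 ± 179 CPM (SD, n = 2) overlapped. On the TMM scale, a scaling by which edgeR evens out the bulk of the arms, the values were 73.7 and 18.96 against 278 and 78.9 CPM and did not overlap. The log2 fold change was 1.94 (SE 0.85), with an adjusted p of 0.892 (edgeR, quasi-likelihood, Benjamini-Hochberg over 310 arms). Its rank by mean CPM was 107 of the 628 arms, between miR-708* and miR-181c*.

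miR-1274a was the most abundant of the 3, with 1062 and 250 control reads and 2420 and 167 after thapsigargin. These were 275, 68.8, 434 and 62.2 CPM, the lowest and the highest both after thapsigargin. The groups, 172 ± 146 and 248 ± 263 CPM (SD, n = 2), overlapped on both scales. The log2 fold change was 0.81 (SE 0.80, adjusted p = 0.987 in edgeR's test).

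miR-1957 was scarce, with 53 and 26 control reads and 124 and 36 after thapsigargin, or 13.7, 7.16, 22.3 and 13.4 CPM. The groups met at 13.7 and 13.4 CPM, with 10.4 ± 4.66 and 17.8 ± 6.26 CPM (SD, n = 2). TMM scaling separated them, at 9.79 and 7.95 against 20.0 and 18.8 CPM. Its log2 fold change was 1.13 (SE 0.54, adjusted p = 0.892 in edgeR's test).

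None of the 3 entries passed the test, and neither did any other arm: 0 of 310 (0%) were called by edgeR, with 12 at an unadjusted p under 0.05 and a smallest adjusted p of 0.259, and DESeq2 also called 0, with 15 at an unadjusted p under 0.05. Groups without overlap were found for 0 of the 3 entries against 31.6% of all tested arms on the CPM scale, and for 2 of 3 against 33.5% on the TMM scale. As the entries were chosen with their counts known, these counts are descriptions. In the authors' deposited table the log2 fold changes of miR-1937a, miR-1274a and miR-1957 are 1.88, 0.77 and 1.05, with adjusted p-values of 0.314, 1 and 1.

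The 2 entries with CCA ends differed widely between the libraries of a group. miR-1937a in CPM was 6.06 times higher in control replicate 1 than in control replicate 2, and 5.50 times higher in thapsigargin replicate 1 than in thapsigargin replicate 2. For miR-1274a the ratios were 4.0 and 6.99, and for miR-1957 they were 1.92 and 1.66. On the TMM scale, 2 other arms of the 310 tested were higher in replicate 1 by at least as much as miR-1937a in both groups, and 4 were lower there by at least as much. For miR-1274a these counts were 5 and 3, and for miR-1957 they were 71 and 76. The median log2 ratio of all tested arms was -0.06 in the controls and -0.02 after thapsigargin, and 23 arms were above 1 in both groups.

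The arms nearest in profile were found by distance between mean-centred log2 TMM-scaled CPM over the 4 libraries. For both CCA-ended entries the nearest was miR-1939, at a distance of 1.15 from miR-1937a and 0.494 from miR-1274a. miR-1939 had 994, 240, 3483 and 189 reads, and its log2 fold change was 1.36 (SE 0.86). The next for miR-1937a were miR-1274a at 1.46 and miR-708 at 1.60, and for miR-1274a they were miR-31* at 0.765 and miR-322* at 0.777. miR-1957 lay close to other arms, with miR-182 at 0.0847, miR-143 at 0.259 and miR-1843-5p at 0.273. The distance rests on 4 libraries and is a description. By abundance, the neighbours of miR-1937a were miR-15b (135 CPM on average) and miR-708* (130) above it and miR-181c* (118) and miR-342-3p (114) below. Around miR-1274a stood miR-196a (228), miR-152 (213), miR-872 (206) and miR-214* (197), and around miR-1957 miR-10a* (14.8), miR-1839-3p (14.7), miR-221* (13.9) and miR-3068* (13.8).

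**Figure D5:**
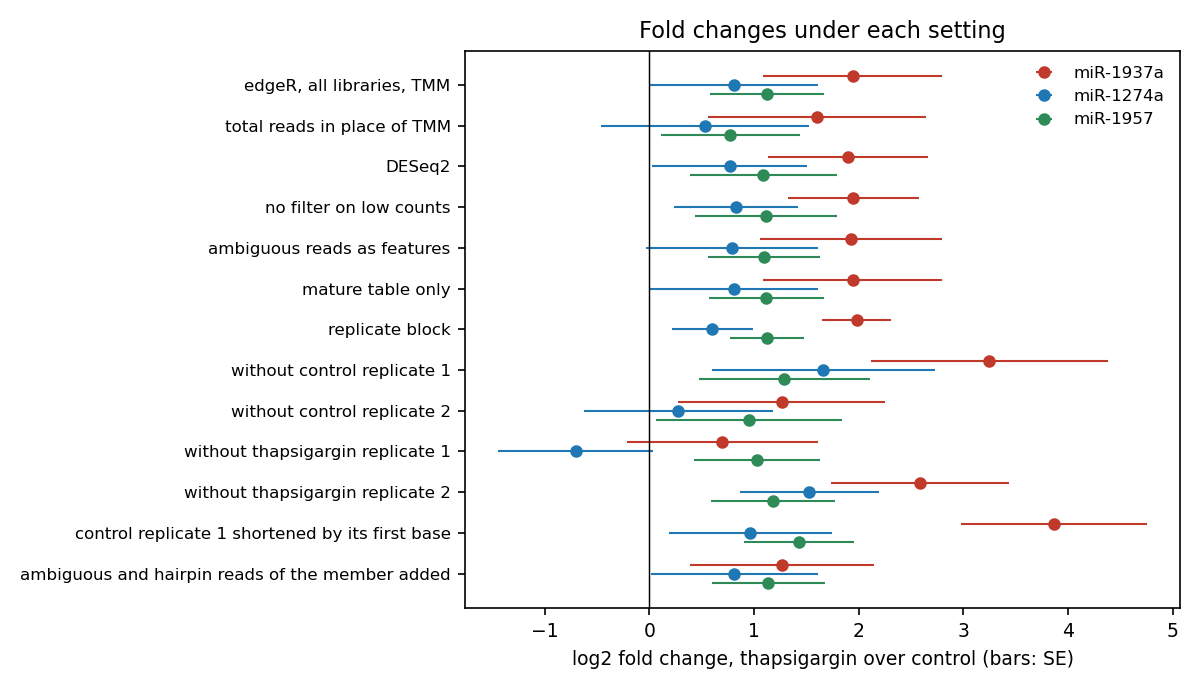
The log2 fold change of each entry, thapsigargin over control (x axis), under each processing setting (rows); points are estimates and bars 1 SE. miR-1937a lies between 0.70 and 3.87, miR-1957 between 0.77 and 1.43, and miR-1274a falls below 0 without thapsigargin replicate 1, at -0.70.

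The size of the miR-1937a difference rested on single libraries and on read naming. Its log2 fold change was 3.25 without control replicate 1, 1.26 without control replicate 2, 0.70 without thapsigargin replicate 1 and 2.59 without thapsigargin replicate 2. When the first base was taken off the reads of control replicate 1, its count there went from 399 to 32 and the log2 fold change to 3.87, since the shortened 19-nt reads are the 18-nt read that is ambiguous. With ambiguous and hairpin-table reads added, a setting chosen after seeing the data, its counts were 2119, 223, 5122 and 535 and the log2 fold change was 1.27. miR-1274a turned to -0.70 without thapsigargin replicate 1, and stood at 0.28 without control replicate 2 and at 1.66 and 1.53 without control replicate 1 and thapsigargin replicate 2. miR-1957 stayed between 0.96 and 1.29 with each library left out.

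A list of 24 further entries that resemble tRNA, rRNA, snoRNA or mitochondrial RNA was set beside the 3. Of these 9 had reads, 5 were tested and 0 passed, with 3 of 5 above 0 and a median log2 fold change of 0.18 against -0.01 over all tested arms. Among the entries like tRNA, miR-720 had 38, 1, 14 and 3 reads, in the order used above. miR-1959 had 45, 12, 54 and 17 reads, with 0.53 as its log2 fold change (SE 0.66). miR-1983 had 45, 16, 51 and 13 reads, with 0.18 (SE 0.63). miR-1937c was read once, in thapsigargin replicate 1. For each of these the most reads were in control replicate 1 or thapsigargin replicate 1. These counts are not scaled, and thapsigargin replicate 1 held the most reads assigned to 1 arm. On the TMM scale the log2 ratios of replicate 1 to replicate 2 were 1.08 (controls) and -0.03 (thapsigargin) for miR-1959. For miR-1983 they were 0.71 and 0.26.

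Entries like rRNA were rare and differed in their pattern, with 7, 43, 11 and 2 reads for miR-2137 and 7, 9, 8 and 4 for miR-2145. Of those like small nucleolar RNA, miR-1839-5p had 470, 176, 668 and 235 reads, with 0.71 (SE 0.52) for the log2 fold change. miR-1839-3p, from the same hairpin, had 86, 61, 81 and 14 reads, with -0.73 (SE 0.57). miR-664 had 26, 27, 41 and 3 reads, with -0.54 (SE 0.77).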

How the data were processed

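Small RNA was sequenced from 2 control and 2 thapsigargin libraries of NIH-3T3 cells. CASAVA 1.8.1, cutadapt, Bowtie, DESeq 1.4.1 and the mouse build mm9 are named in the submitters' processing notes, with no role or order. The authors deposited whole-number counts of each distinct read, per the file headers, in tables of mature, star, predicted star and hairpin reads. The deposited tables also give ambiguous reads per name combination as a percent of the reads entering the count, and the authors' comparison table gives p-values beside log2 fold changes, also per the file headers. The summary table of thapsigargin replicate 2 was not used. In the other 3 libraries the deposited summary counts of the 3 entries equal those of the read tables.

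Counts were summed per arm and tested with edgeR 4.0.16 in R 4.3.3 (quasi-likelihood, two-sided, TMM, robust, filterByExpr with minimum count 10, Benjamini-Hochberg over 310 arms, threshold 0.05). TMM factors were 1.40, 0.900 (controls), 1.11 and 0.712 (thapsigargin), and BCV, the biological coefficient of variation, 0.447. Shares have exact 95% binomial intervals, with 3 counts as the limit for a count of 0. Ends and lengths were compared with exact permutation tests in scipy 1.17.1. Reads entering the count numbered 2883126 to 6023406 per library. Hairpin tables held 31725 reads in control replicate 1 and 1806 to 5439 in the others.

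Reads were searched in GENCODE M21 transcripts (GRCm38.p6), which also gave the coordinates, since the files hold none. tRNA genes are RefSeq's of the same assembly. The RefSeq table of mature miRNAs used here matched none of the 3 entries, so sequences are the deposited reads.

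The entries, lists and tests were chosen with earlier results of these data known. Named besides the 3 entries are listed companions with at least 10 reads, the 3 arms nearest in profile (mean count at least 50, prior count 2), the 2 abundance neighbours on each side and the marker lists. miR-1937c, miR-1959 in the motif search, miR-3096-3p, miR-181a and the arms called under single alternatives were named after their values were seen. The edgeR step was tested on simulated data. At the observed spread it called 26 of 50 arms changed 4-fold (52%) and 47 of 47 changed 16-fold. Of 193 unchanged arms it called 3. A real change of about 4-fold could thus be missed. Alternatives were other scaling, DESeq2 1.42.0, no filter, the mature table alone, ambiguous reads as features, a replicate block, each library left out, distinct reads counted once, single reads left out, and control replicate 1 reads shortened by their first base. The last step dropped 56287 reads (1.42%) and gave shortened reads found in the other libraries the assignment they have there.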

Additional observations from a re-analysis of the deposited data

Results flagged for a closer look

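Reads of the miR-1937a stretch in the hairpin tables, which the abundance comparison does not use, stood at 58.6 and 25.0 CPM, scaled to the reads assigned to arms, in the controls and at 284 and 64.4 CPM after thapsigargin. The lower thapsigargin library, at 64.4, lay above both controls, the higher of which was at 58.6. Groups without overlap, in either direction, were found for 31.6% of all tested arms on the CPM scale. The hairpin-table reads were singled out by this lack of overlap, as a signal outside the main measurement. It therefore adds nothing to the choice, and the difference was not tested.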

How the results depend on the processing

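The count of called arms was 0 in 10 of 12 alternatives, 3 without the filter on low counts (miR-216a*, miR-217 and miR-671-5p) and 0 to 3 with a library left out. The 3 came without control replicate 2 and were miR-671-5p, miR-196a-1* and miR-503*, the last 2 as predicted stars. The log2 fold change kept its direction in 35 of 36 alternatives. It ranged from 0.70 to 3.25 for miR-1937a, from -0.70 to 1.66 for miR-1274a and from 0.96 to 1.29 for miR-1957 with each library left out. In fits with 1 library in a group, that library is assumed to vary like the others. Total reads in place of TMM gave 1.60, 0.53 and 0.77, DESeq2 gave 1.90, 0.77 and 1.09, and the shortened reads of control replicate 1 gave 3.87, 0.96 and 1.43. Adjusted p-values over these alternatives were 0.188 to 0.994 for miR-1937a, 0.612 to 0.998 for miR-1274a and 0.493 to 0.994 for miR-1957.

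The labels do not say that replicate numbers pair the samples, and the deviations of same-numbered libraries correlated at 0.568 over the tested arms, with only 2 pairs. With the replicate number as a block, 0 arms were called, 29 had an unadjusted p under 0.05 against 12 without it, and the log2 fold changes were 1.98 (SE 0.33, adjusted p = 0.306 in edgeR's test), 0.60 (SE 0.39) and 1.12 (SE 0.36).

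Of 112 alternatives for ends and lengths, 17 changed the sign of the difference, thapsigargin minus control. With each distinct read counted once, it became -4.88 percentage points for the commonest read of miR-1937a, -7.89 for CCA ends, -4.67 for the commonest start and -3.19 for the commonest length of miR-1274a, and -11.6 for the commonest length of miR-1957. Mean length became 0.12 nt for miR-1274a and 0.10 nt for miR-1957. With control replicate 1 shortened, mean length became 0.46 nt for miR-1937a and 0.061 nt for miR-1957, and the commonest start of miR-1957 became -7.52. With a library left out, the ranges that cross 0 were -2.25 to 75.7 for the commonest read of miR-1937a, -0.81 to 1.81 for CCA ends, -0.53 to 33.0 for the commonest start and -0.43 to 32.7 for the commonest length of miR-1274a, and -0.62 to 23.04 for the commonest start and -0.39 to 0.20 nt for the mean length of miR-1957. The cause of these changes was not tested. The p-values of all 14 measures could not pass the threshold, so they show nothing about stability. Depth limits miR-1957 most, with 26 to 124 reads per library.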
